A study of Mus musculus and Homo sapiens with 11 samples.

Results

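The keratin family was followed in cultured mouse MMTV-ErbB2 mammary tumour cells, as 52 of the 24062 genes in the deposited table. Members were all rows whose symbol was Krt followed by a number and at most 1 letter, which leaves out the keratin-associated proteins, and the rule used no measured value. They comprised 28 type I and 24 type II keratins, and 18 of them, 11 type I and 7 type II, reached a mean of 10 normalised reads over the 6 libraries and were tested. The groups were the parental cells and BrM2a, labelled as a brain metastatic derivative and called BrM here, with 3 libraries of polyadenylated RNA each. Both groups are labelled as a breast cancer cell line of the same name, and no treatment is given for either. MMTV is the promoter of mouse mammary tumour virus, used in mice to drive a transgene, here named ErbB2, in mammary epithelium. All cells were grown to 80% confluence in a medium based on DMEM or RPMI, and the libraries were made with the TruSeq or the NEBNext kit, without a statement of which library had which. The xenografts mentioned in the study's design used other lines, so that these values came from cells in culture and not from brain tissue. The labels do not say whether the 3 libraries of a group were separate cultures, or whether the derivative was a clone, so the p-values measure the spread between libraries, which may be technical. In each group, replicate 3 is the column numbered 3, taken by elimination to be the library whose label has no number.

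Keratins are the intermediate filament proteins of epithelial cells, and each filament is built from pairs of 1 acidic type I and 1 basic to neutral type II chain. Krt8 with Krt18 is the pair of simple and luminal epithelium, while Krt5 with Krt14 is the pair of basal cells of stratified epithelium and of the myoepithelium of the mammary gland. Krt19 and Krt17 are further type I chains, of luminal and of basal or wounded epithelium. A chain without a partner of the other type is degraded, so the balance of the types is of interest beside the single genes.

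The pair of simple epithelium, Krt8 and Krt18, rose 2.52-fold and 2.27-fold in the derivative, while the type I keratins Krt19, Krt17 and Krt23 fell 135-fold, 60.1-fold and 32.3-fold. Krt14 fell 2.39-fold. The members Krt80, Krt79, Krt20 and Krt5 rose. Among the 11 type I members tested, 2 rose, 4 fell and 5 did not pass the test, with a median log2 fold change of -0.22. Among the 7 type II members, 4 rose, 0 fell and 3 did not pass, with a median of 2.44. The count of 0 was from limma on log2(value + 1), with p-values adjusted over all 13821 genes tested and a threshold of 0.05. It was also 0 at an unadjusted p under 0.05, and 0 in edgeR, which called 27.2% of all genes, and in DESeq2, which called 36.7%. Over all genes tested, 28.1% were called, 12.2% higher and 15.8% lower, and the median log2 fold change was -0.05. The type II count rested on single libraries, since it was 1 without parental replicate 2 or BrM replicate 2 and 2 without parental replicate 1 or BrM replicate 3. It was 6 without BrM replicate 1, all higher, and 6 without parental replicate 3, of which 5 were higher and 1, Krt76, was lower. The type I count was 4 to 8 with 1 library left out, the 8 being without BrM replicate 1, when 47.2% of all genes were called. Ranges of the groups did not overlap for 8 type I members, 4 above and 4 below, and for 5 type II members, all above the parental libraries, where 48.0% of all genes did not overlap, 22.3% above and 25.7% below.

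**Figure D1:**
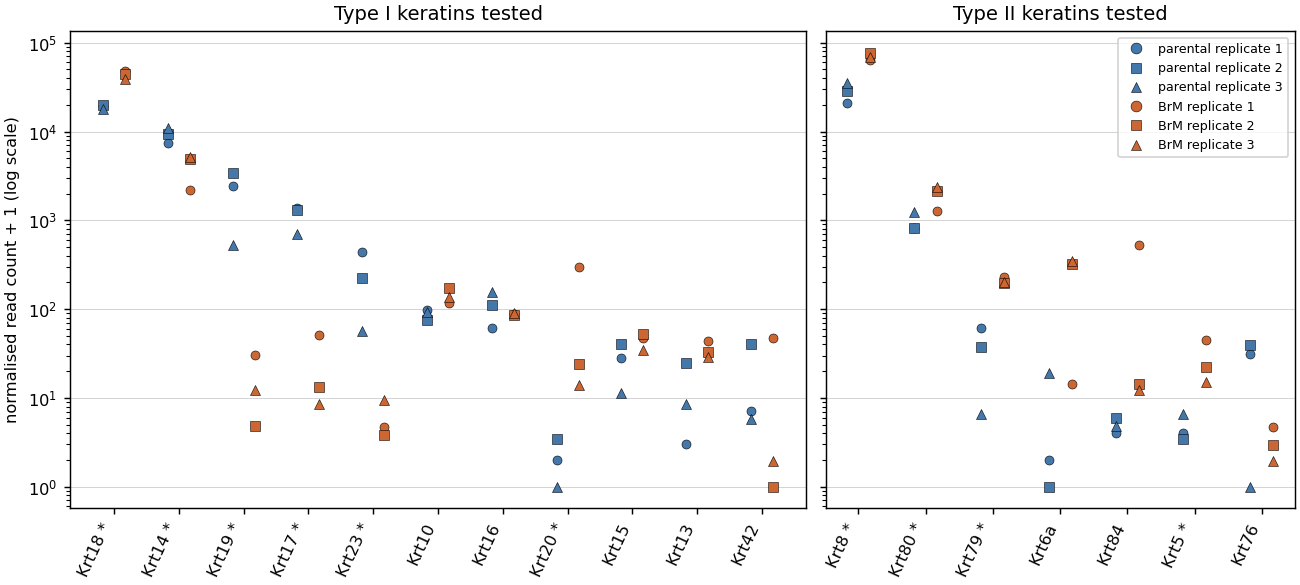
Normalised read count plus 1 (log scale) of the 18 keratins tested, type I on the left and type II on the right, with parental libraries in blue and BrM libraries in orange, 1 point per library and an asterisk at members called. Krt8 and Krt18 lie at 18008 or more in every library, and Krt19, Krt17 and Krt23 drop from between 55.7 and 3439 to between 2.87 and 50.0.

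The libraries held 29877087 to 46683735 reads in genes. BrM replicate 1 stood apart from the other libraries of its group: 26.1% of genes lay at least 2-fold from BrM replicate 2 and 26.4% from BrM replicate 3, against 1.59% between those 2. Of the 18 keratins tested, 8 and 10 lay at least 2-fold from BrM replicates 2 and 3, and 2 between them. Among parental libraries 7.06% to 12.2% of genes lay at least 2-fold apart, and parental replicate 3 differed from each of the others in 9 keratins. Epithelial markers outside the keratins summed to 82001 to 86144 in the parental and 92725 to 108363 in the BrM libraries, with 7 of 12 higher, 1 (Cdh1) lower and 4 not called. Fibroblast markers fell in 5 of the 7 tested and summed to 40256 to 65296 against 2195 to 3816. Within these sums Vim alone measured 25962, 50883 and 35608 against 2704, 2069 and 1966. In this list 1 member, Lum, had no read and 2 others, Dcn and Thy1, had none in BrM. Dcn had 842, 454 and 246 reads in the parental libraries, but Thy1 had only 1, 2 and 0. Of leukocyte markers 2 of 8 were tested and Csf1r rose. Cd68, the other one tested, was not called, at 594, 221 and 195 against 2670, 209 and 211. The list summed to 222 to 598 against 453 to 3009, the highest in BrM replicate 1, with Ptprc and Tyrobp below 5 in every library. Brain markers rose in 3 of the 5 tested (Gfap, Mbp and P2ry12) and were not called in 2, of which Tmem119 measured 251, 492 and 315 against 192, 8.61 and 7.45 (adjusted p = 0.0586). They summed to 1260 to 1805 against 2282 to 2709, with Aqp4 and Mog at 0 in all BrM libraries. Beside these counts of called markers, 12.2% of all genes tested were higher and 15.8% lower. The part of these markers in the keratin values was not tested, and fewer cells of a kind cannot be told apart from less RNA per cell in such bulk RNA.

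Upstream sequences are shown for called members because several of those that rose share a run of letters there. RefSeq's promoter table (GRCm38.p6) had an entry for 35 of the 52 keratins and for 7 of the 10 called. The 250 bases before each RefSeq start were searched on both strands for CACCTG, the E-box letters bound by Zeb and Snail repressors of epithelial genes, and for 4 other motifs. CACCTG was in 13 of the 36 keratin entries, 36.1%, against 17.2% of 32851 entries for all genes. It was in 4 of the 5 entries of called keratins that rose and in 1 of the 2 that fell. The other fallen member with an entry was Krt14. Its RefSeq start lay 1518 bases inside the GENCODE gene, so its stretch was not upstream of the annotated gene. Among those that rose, the RefSeq start of Krt8 lay 140 bases inside its GENCODE gene. The match of Krt8 stood 111 bases before that start and so inside the annotated gene. Krt17 and Krt19, which fell, and Krt80, which rose, had no entry, so members that rose and fell cannot be compared here. The stretches below are 5′ to 3′ on the gene's strand, with CACCTG or its other-strand form CAGGTG in capitals. They are shown for 4 of these members and hold no base of the gene's GENCODE span. They come from chr15:102027966-102028179, plus strand (Krt18), chr15:101712906-101713155, minus strand (Krt5), chr15:101940325-101940574, minus strand (Krt79) and chr11:99493138-99493370, minus strand (Krt23).
Krt18: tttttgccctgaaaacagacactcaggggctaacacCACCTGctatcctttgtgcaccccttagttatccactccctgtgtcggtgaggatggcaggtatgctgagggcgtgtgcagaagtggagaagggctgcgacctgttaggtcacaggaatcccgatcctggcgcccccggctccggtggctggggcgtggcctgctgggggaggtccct
Krt5: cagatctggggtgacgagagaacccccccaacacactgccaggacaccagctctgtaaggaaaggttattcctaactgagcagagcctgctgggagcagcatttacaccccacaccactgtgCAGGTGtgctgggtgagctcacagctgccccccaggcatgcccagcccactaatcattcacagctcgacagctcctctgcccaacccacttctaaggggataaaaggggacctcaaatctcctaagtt
Krt79: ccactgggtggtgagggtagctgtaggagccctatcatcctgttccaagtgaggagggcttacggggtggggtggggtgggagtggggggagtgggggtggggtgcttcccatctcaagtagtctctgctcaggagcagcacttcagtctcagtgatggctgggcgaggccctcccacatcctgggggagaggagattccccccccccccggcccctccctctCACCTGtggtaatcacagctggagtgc
Krt23: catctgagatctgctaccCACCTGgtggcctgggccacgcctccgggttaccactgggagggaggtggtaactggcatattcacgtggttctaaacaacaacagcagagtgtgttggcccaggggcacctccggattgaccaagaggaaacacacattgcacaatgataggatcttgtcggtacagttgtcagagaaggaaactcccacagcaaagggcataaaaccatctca
The first 3 belong to members that rose and the last to a member that fell, so the letters were found on both sides. They stood 214, 128, 27 and 232 bases before the RefSeq start in the same order. TATAAA was in 47.2% of keratin entries and 12.4% of all entries, and in Krt20 among the called members that rose. GGGCGG was in 5.56% against 32.7%, TGANTCA in 5.56% against 6.75%, and GCCNNNGGC in 11.1% against 13.7%. A match is a run of letters and not a shown binding site, and keratin genes share ancestry, so their entries are not independent.

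Krt8 (ENSMUSG00000049382.10, chr15:101996698-102004482 in GRCm38, minus strand), the type II chain of simple epithelium, had the highest mean level per kb of exon of all keratins in both groups. Its normalised read counts were 20801, 28556 and 35392 in parental replicates 1 to 3, and 64388, 76754 and 68286 in BrM replicates 1 to 3. All BrM libraries lay above all parental libraries, with means of 28250 ± 7300 and 69809 ± 6322 (SD, n = 3 each). The log2 fold change was 1.33 (SE 0.22, limma adjusted p = 0.0066). Ranked by mean value per kb of exon among all genes, Krt8 stood at place 79 in the parental and 22 in the BrM libraries. Of its 50-base windows 29.7% also occur in another transcript, mostly the pseudogene Krt8-ps, and an exon of Gm36026 overlaps it on the other strand. The sources used here do not say how the counting treated strand or such copies, so some of these reads cannot be placed.

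Krt18 (ENSMUSG00000023043.7, chr15:102028180-102032027, plus strand), the type I partner of Krt8, is the one type I gene annotated in the type II cluster, next to Krt8. It measured 19519, 19879 and 18008 in the parental and 48062, 43887 and 38816 in the BrM libraries. The groups were far apart against their spread, at 19135 ± 993 and 43588 ± 4630 (SD, n = 3 each). Its log2 fold change of 1.18 (SE 0.14, limma adjusted p = 0.00186) was near that of Krt8, and its rank per kb went from 94 to 28. The ratio of Krt8 to Krt18, each per kb of exon, was 1.09 ± 0.33 in the parental and 1.19 ± 0.18 in the BrM libraries (SD, n = 3 each), with overlapping ranges. Both calls held in all 16 alternative settings and with any library left out.

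Krt19 (ENSMUSG00000020911.14, chr11:100140810-100148665, minus strand), a luminal and ductal type I keratin with almost no tail domain, showed the largest fall among the keratins tested. Values were 2424, 3439 and 530 in the parental libraries and 29.3, 3.83 and 11.2 in the BrM libraries. Parental replicate 3 was the lowest of its group and still lay above all BrM libraries. The log2 fold change was -7.08 (SE 0.91, limma adjusted p = 0.00256), a 135-fold lower level on the log2(value + 1) scale. Its size rested on single libraries: it became 238-fold when parental replicate 3 was left out, 214-fold when BrM replicate 1 was, and 85.5-fold when BrM replicate 2 was. It was called in each of these.

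Krt17 (ENSMUSG00000035557.9, chr11:100256217-100261029, minus strand), a type I keratin of basal and wounded epithelium, measured 1370, 1301 and 702 in the parental libraries. In BrM replicates 1 to 3 it was at 50.0, 12.4 and 7.45. BrM replicate 1 was the highest of its group, as for Krt19, and no BrM library came near the parental range. The log2 fold change was -5.91 (SE 0.69, limma adjusted p = 0.00183), 60.1-fold lower, and without BrM replicate 1 it was 101-fold lower. Krt23 (ENSMUSG00000006777.7, chr11:99477974-99493137, minus strand), a type I keratin known from simple epithelia and their tumours, went from 443, 225 and 55.7 to 3.66, 2.87 and 8.38. Here the parental libraries spread widely, from 55.7 to 443, above 3 BrM libraries that all lay below 10. Its log2 fold change was -5.01 (SE 0.80, limma adjusted p = 0.00577), 32.3-fold lower, which became 20.5-fold when parental replicate 1 was left out and 57.2-fold when parental replicate 3 was. A pseudocount of 10 in place of 1, which shrinks folds of low values, gave 73.3-fold, 38.0-fold and 12.9-fold lower levels of Krt19, Krt17 and Krt23, all called.

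Krt14 (ENSMUSG00000045545.8, chr11:100203162-100207548, minus strand), the type I chain of basal and myoepithelial cells, stayed the second type I keratin in both groups. It measured 7368, 9335 and 10915 in the parental and 2198, 4894 and 5132 in the BrM libraries. The groups did not overlap, and BrM replicate 1 was the lowest library. Its log2 fold change was -1.25 (SE 0.35, limma adjusted p = 0.0398). The call was near the threshold, with an adjusted p of 0.0529 in edgeR, 0.0585 without the intensity trend, and 0.0747, 0.119, 0.12 and 0.0598 in limma without parental replicates 1, 2 or 3 or BrM replicate 2. Of its 50-base windows 13.9% also occur in other transcripts, chiefly Krt16.

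Krt5 (ENSMUSG00000061527.7, chr15:101707070-101712898, minus strand), the type II partner of Krt14, was at 3.05, 2.47 and 5.67 in the parental and 43.9, 21.0 and 14.0 in the BrM libraries. It rose (log2 fold change 2.44, SE 0.55, limma adjusted p = 0.0200), while Krt14 fell, and every BrM value lay above every parental one. Its fold of 5.41 became 2.51 at a pseudocount of 10, where it was still called. Level per kb of exon was 3382 ± 1199 times higher for Krt14 than for Krt5 in the parental libraries and 271 ± 199 times higher in BrM (SD, n = 3 each). In no library, then, did the level of Krt5 come near that of Krt14. Without parental replicate 1, parental replicate 2 or BrM replicate 2, the adjusted p of Krt5 was 0.0676, 0.0748 and 0.0619, and 12.2% of its windows also occur in other transcripts. Krt15, the other basal type I keratin, was not called (adjusted p = 0.257) at 27.5, 39.5 and 10.4 in the parental and 46.4, 51.6 and 33.5 in the BrM libraries.

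Krt80 (ENSMUSG00000037185.9, chr15:101347444-101370162, minus strand), a type II keratin of differentiating epithelia found near desmosomes, was the second type II keratin in level. It measured 825, 820 and 1246 in the parental libraries and 1285, 2143 and 2377 in BrM. The lowest BrM library lay just above the highest parental one. It rose by the test (log2 fold change 0.98, SE 0.29, limma adjusted p = 0.0471), and the call ended with TMM scaling at 0.056, with no filter on low values at 0.0501 and without the trend at 0.0652. Leaving out parental replicate 1 or 2 or BrM replicate 2 or 3 gave 0.145, 0.149, 0.144 and 0.144. Krt79 (ENSMUSG00000061397.8, chr15:101929332-101940324, minus strand), a type II keratin of the hair canal and sebaceous duct, went from 61.1, 36.2 and 5.67 to 231, 196 and 200.2. The BrM libraries were close together and the parental ones spread from 5.67 to 61.1. Its log2 fold change was 3.07 (SE 0.80, limma adjusted p = 0.032), 8.42-fold higher, which became 13.3-fold when parental replicate 1 was left out and 4.36-fold when parental replicate 3 was. Without parental replicate 2, BrM replicate 2 or BrM replicate 3 its adjusted p was 0.0711, 0.0852 and 0.085.

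Krt20 (ENSMUSG00000035775.2, chr11:99428403-99438150, minus strand), a type I keratin of intestinal and urothelial surface cells, was carried mainly by 1 library. It measured 1.02, 2.47 and 0 in the parental libraries, 4 reads in all, and 299, 23.0 and 13.0 in BrM. BrM replicate 1 was far above the others, and all BrM libraries lay above the parental range. The log2 fold change was 4.60 (SE 1.20, limma adjusted p = 0.0313), 24.3-fold higher, and 9.58-fold higher without BrM replicate 1 (adjusted p = 0.00997). Without BrM replicate 3 it was 44.3-fold higher. The call ended without parental replicate 1, 2 or 3 or BrM replicate 2, at 0.0919, 0.0703, 0.0974 and 0.0593, and at a pseudocount of 10, at 0.0982. The fold also depended on the method, at 83.0 in edgeR (adjusted p = 0.0333) and 96.1 in DESeq2. DESeq2 gave Krt20 no adjusted p and so did not call it.

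Krt6a (ENSMUSG00000058354.7, chr15:101689910-101694307, minus strand), a type II keratin of wounded and stressed epithelium, did not pass the test. It measured 1.02, 0 and 17.9 in the parental libraries and 13.4, 320 and 348 in BrM. BrM replicate 1 lay within the parental range and the other BrM libraries far above it. The log2 fold change was 5.12 (SE 1.58, limma adjusted p = 0.0540). It passed without BrM replicate 1 (99.5-fold higher, 0.00635), without parental replicate 3 (82.7-fold, 0.0423) and in DESeq2 (36.3-fold, 0.00247). With parental replicate 2, BrM replicate 2 or BrM replicate 3 left out it was 19.0, 21.1 and 20.2-fold higher and did not pass. Of its windows 57.2% also occur in other transcripts, chiefly its near copy Krt6b (40.2%). Krt6b itself had 1, 0 and 4 reads in the parental libraries and 4, 0 and 0 in BrM. Krt6a had 335 and 374 reads in BrM replicates 2 and 3. The origin of reads in shared windows was not tested. Krt16, its usual type I partner, measured 60.0, 110 and 154 in the parental and 86.7, 84.2 and 88.5 in the BrM libraries and was not called (log2 fold change -0.22, adjusted p = 0.708). Its sign turned to 0.084 without parental replicate 3, and 37.6% of its windows also occur elsewhere.

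Krt84, a type II hair keratin, was another member carried by BrM replicate 1, at 525 there against 13.4 and 11.2 in the other BrM libraries and 3.05, 4.94 and 3.78 in the parental ones. All BrM values lay above all parental values, but the adjusted p was 0.143 in limma. Without BrM replicate 1 the fold went from 9.29 to 2.72 and the adjusted p was 0.034. It was 16.5-fold and 17.9-fold higher without BrM replicate 2 or 3, and 44.3-fold in edgeR. In DESeq2 it was 47.5-fold higher, with no adjusted p given. Krt10, the suprabasal type I keratin of epidermis, measured 95.7, 74.1 and 90.6 in the parental and 117, 170 and 135 in the BrM libraries, without overlap. It was not called (log2 fold change 0.68, adjusted p = 0.108), and passed in DESeq2 (0.0414) and without BrM replicate 1 (0.038). The 3 others that did not pass, Krt13, Krt42 and Krt76, had means of 12.6 to 22.6 over the 6 libraries. Each of them passed with 1 library left out: Krt13 higher without parental replicate 2 (0.0384), Krt42 lower without BrM replicate 1 (0.0391) and Krt76 lower without parental replicate 3 (0.0117).

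**Figure D2:**
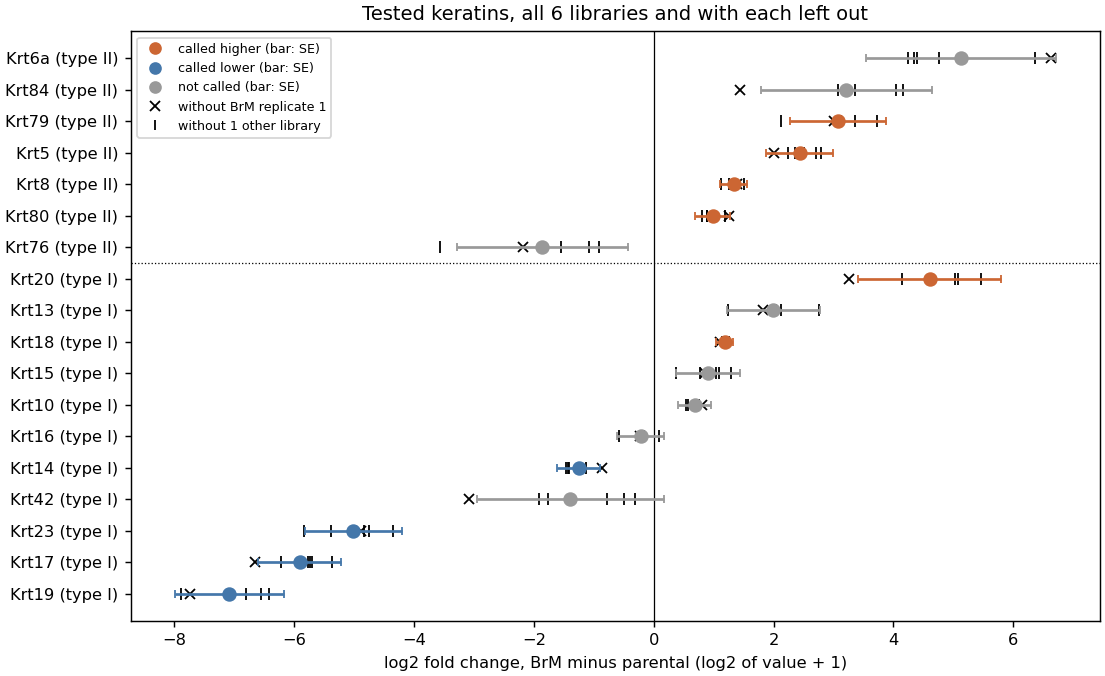
Log2 fold change of BrM minus parental for the 18 keratins tested (log2 of value plus 1), with type I below the dotted line and type II above it. Circles and bars are the value and SE with all 6 libraries, coloured by call, crosses are the value without BrM replicate 1, and ticks the value without each other library. Krt8 and Krt18 hardly move, while Krt6a, Krt84, Krt42 and Krt20 shift widely when BrM replicate 1 is left out.

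By role, the simple epithelial keratins split: of the 5 tested, Krt8, Krt18 and Krt20 rose and Krt19 and Krt23 fell. Of 3 basal keratins tested, Krt5 rose, Krt14 fell and Krt15 was not called. Wound and stress keratins had 1 lower (Krt17) and 2 not called of 3 tested. The keratins of stratified differentiation, a list of 14 with 6 tested, had 2 higher (Krt79 and Krt80) and 4 not called. Of 24 keratins of hair and the root sheath, 1 (Krt84) was tested and not called. Of all genes tested 28.1% were called, 12.2% higher and 15.8% lower. The 1 of 3 wound and 2 of 6 stratified keratins called were near the share of 28.1%.

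The 34 keratins below the filter gave few reads in both groups. Their highest mean was 9.52, that of Krt4, and the first member inside the filter was Krt76 at 12.6. In 29 of the 34 no library reached 10, and the highest single value was 25.6. Krt4, Krt78, Krt33a, Krt222 and Krt32 reached 10 in at least 1 library. No read in any library was found for 6: the type I members Krt12, Krt26, Krt39 and Krt40 and the type II members Krt2 and Krt72. Krt7, the luminal type II keratin of ducts, was among the untested, with 0 reads in each parental library and 4, 5 and 0 in BrM. Symbols of the hair keratins Krt81, Krt83 and Krt86 have moved between annotations, so these rows may not be the genes now so named.

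Summed per kb of exon, type I keratins were at 20727 ± 1278 in the parental and 32920 ± 2555 in the BrM libraries (SD, n = 3 each). Type II keratins were at 14608 ± 3751 and 36197 ± 3240. Neither pair of ranges overlapped, from 19676 to 22150 against 30115 to 35114 for type I, and from 10790 to 18289 against 33387 to 39741 for type II. The ratio of type II to type I was 0.53, 0.666 and 0.929 in parental replicates 1 to 3 and 0.951, 1.19 and 1.18 in BrM replicates 1 to 3. The lowest BrM ratio lay just above the highest parental one, so the separation was narrow. These sums include all members with an annotated length, and no test was made on them.

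**Figure D3:**
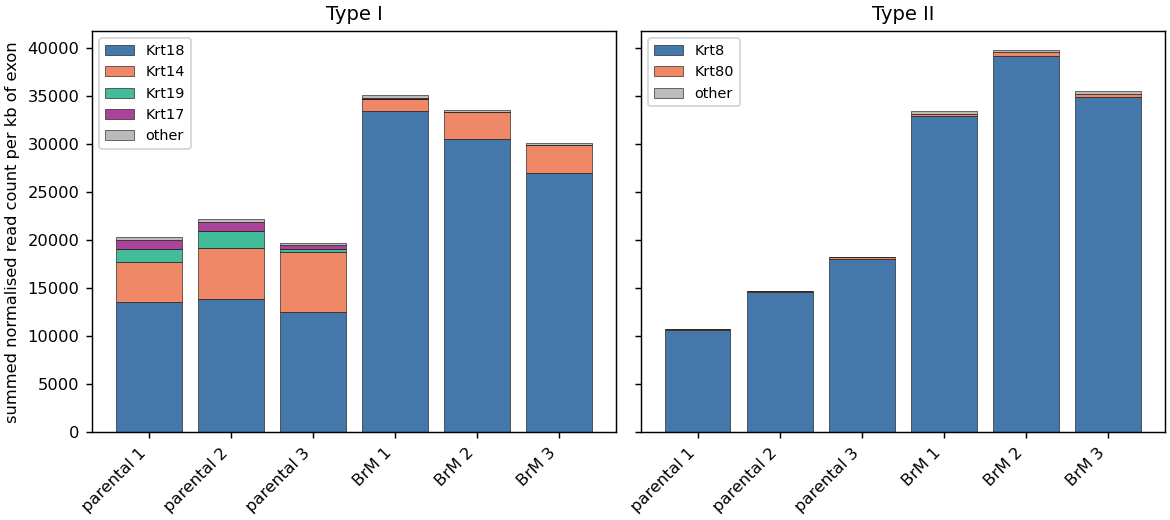
Summed normalised read count per kb of exon in each library, type I on the left and type II on the right, with the leading members as coloured segments and all others in grey. Krt18 makes up 64.3% of the parental and 92.0% of the BrM type I sum, and Krt8 nearly all of the type II sum in every library.

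Shares within the sums differed between the groups mainly for type I. Krt18 made up 64.3 ± 2.2% of type I in the parental and 92.0 ± 2.9% in the BrM libraries (SD, n = 3 each). Krt14 went from 25.4 ± 5.6% to 7.19 ± 3.21%. Krt19 went from 5.41% to 0.0237% on average, and Krt17 from 3.48% to 0.0439%. Within type II, Krt8 made up 98.7% and 98.5%.

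Keratin genes lie in 2 clusters. By GENCODE M21 on GRCm38, 27 type I genes lie on chromosome 11 (chr11:99232761-100269871), and 23 type II genes with Krt18 lie on chromosome 15 (chr15:101347444-102032027). Krt85 found no match in that annotation. In the chromosome 11 cluster Krt20 rose and Krt14, Krt17, Krt19 and Krt23 fell, whereas all members called on chromosome 15 rose. Other genes of these chromosomes had a median log2 fold change of 0.11 (1153 genes, chromosome 11) and 0.23 (550 genes, chromosome 15). Among tested neighbours within 500 kb of the clusters, 4 of 33 were called higher and 1 lower on chromosome 11, and 1 of 29 higher and 2 lower on chromosome 15. Over all genes tested, 12.2% were called higher and 15.8% lower. The medians of the neighbours were 0.11 and 0.25, and the called keratins changed by 0.98 or more in either direction.

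**Figure D4:**
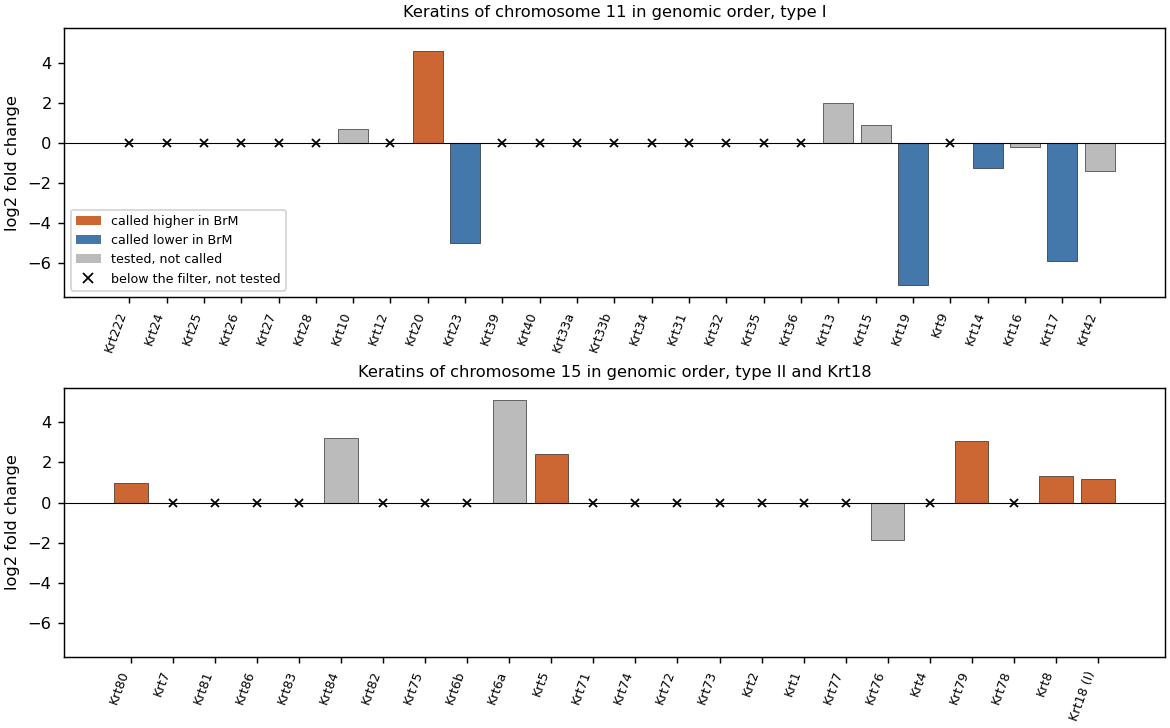
Log2 fold change of BrM minus parental for each keratin in its order along chromosome 11 (top) and chromosome 15 (bottom), with orange bars called higher, blue bars called lower, grey bars not called and crosses for members below the filter. Called type I genes of chromosome 11 point both ways, and the called genes of chromosome 15, Krt18 among them, all point up.

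Desmosomes tie keratin filaments to the junctions between cells, and of 10 desmosome genes tested 1 rose and 0 fell, with a median log2 fold change of 0.09 (0 lower also at an unadjusted p under 0.05, in edgeR and in DESeq2). The one that rose was the plakophilin Pkp3, from 2428, 2490 and 2785 to 3901, 4516 and 4683 (log2 fold change 0.76, SE 0.13, limma adjusted p = 0.00723). Hemidesmosomes anchor keratins to the basement membrane, and of 9 such genes and plakins 1 rose, 2 fell and 6 were not called, with a median of 0.00, where 28.1% of all genes were called. Itgb4, the integrin chain of hemidesmosomes, rose by 0.54 on the log2 scale (adjusted p = 0.0353). The plakin Ppl fell by 0.69 (adjusted p = 0.0101) and the tetraspanin Cd151 fell by 0.85 (adjusted p = 0.00609).

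Of 5 proteins that bind keratins in the cytoplasm, 3 rose and 0 fell (0 lower also at an unadjusted p under 0.05, in edgeR and in DESeq2), with a median of 1.18. Over all genes tested, 12.2% rose and 15.8% fell. Fam83h, which recruits a kinase to keratin filaments, went from 1955, 1581 and 1899 to 3807, 4094 and 4393 (log2 fold change 1.18, adjusted p = 0.00181). Sfn, the epithelial 14-3-3 protein, went from 212, 269 and 516 to 1396, 2131 and 1990 (log2 fold change 2.55, adjusted p = 0.00371). Both were separated from the parental range in every BrM library. Tchh, a matrix protein of the hair root sheath, went from 3.05, 6.59 and 3.78 to 128, 149 and 136 (log2 fold change 4.71, adjusted p = 0.000436). Cornified envelope genes, which belong to late keratinocyte differentiation, had 1 higher (Ivl, log2 fold change 3.97, adjusted p = 0.00179), 1 lower (Tgm5, -2.23, adjusted p = 0.0482) and 4 not called of 6 tested. The shares over all genes were again 12.2% higher and 15.8% lower.

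Among 20 tested regulators of keratin genes, 3 rose, 8 fell and 9 were not called, with a median log2 fold change of -0.60, where 12.2% of all genes rose and 15.8% fell. Trp63, the transcription factor of basal epithelium that drives Krt5 and Krt14, measured 2314, 1368 and 1038 in the parental and 25.6, 1.91 and 2.79 in the BrM libraries. Its log2 fold change was -7.81 (SE 0.86, limma adjusted p = 0.00151). The repressors of epithelial genes Zeb1, Zeb2 and Snai2 fell too, with log2 fold changes of -4.82 (adjusted p = 0.000256), -3.36 (adjusted p = 0.000121) and -3.24 (adjusted p = 0.00183). All BrM libraries lay below all parental libraries for these 4 genes. The related repressor Snai1 was not called (log2 fold change 0.21, limma adjusted p = 0.738). It measured 264, 373 and 350 in the parental and 709, 275 and 275 in the BrM libraries. Elf3, Ovol1 and Tfap2c were the 3 that rose. The others that fell were Ehf, Klf4, Tfap2a and Satb1, with log2 fold changes of -5.30, -1.92, -0.87 and -4.12. Their limma adjusted p were 0.0111, 0.00469, 0.00866 and 0.00272. Ehf measured 22017, 20320 and 16943 in the parental and 2965, 206 and 201 in the BrM libraries. These changes are given beside the keratins, and their part in the keratin values was not tested.

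**Figure D5:**
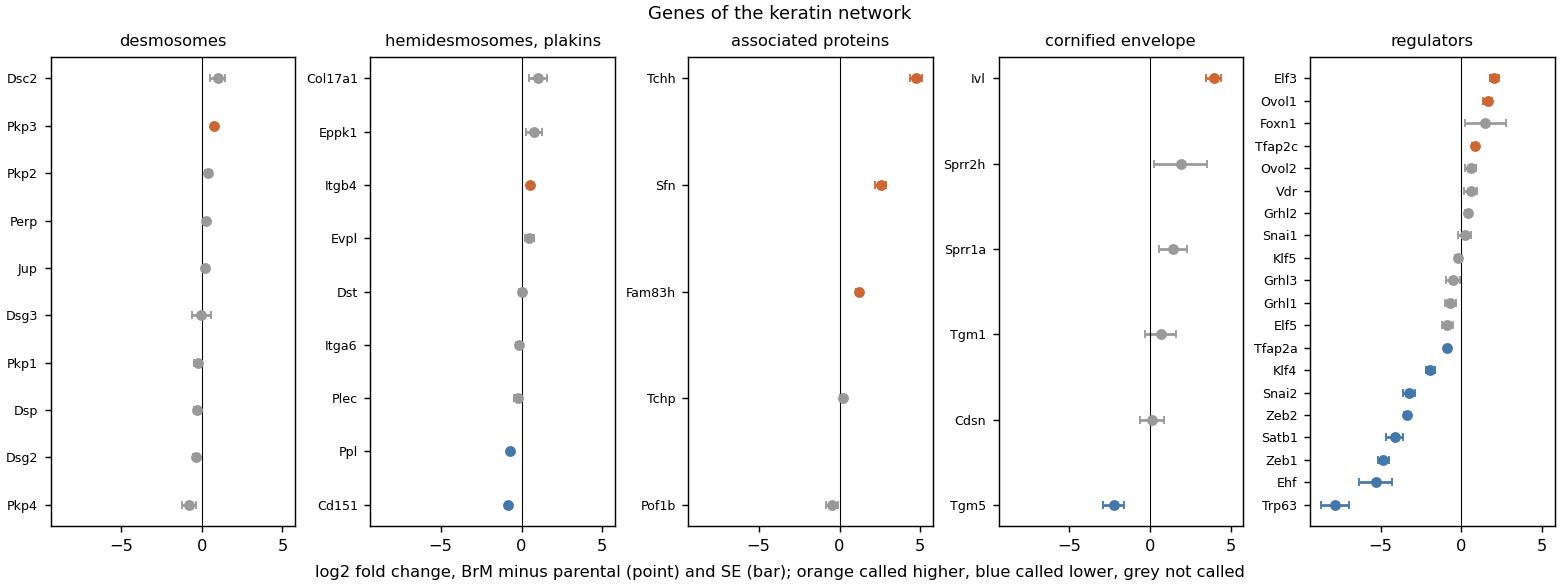
Log2 fold change of BrM minus parental (point) with its SE (bar) for the tested genes of 5 lists, namely desmosomes, hemidesmosomes with plakins, keratin-associated proteins, cornified envelope and regulators, with orange called higher, blue called lower and grey not called. Of the desmosome genes only Pkp3 is called, and the regulators spread from Trp63 at -7.81 to Elf3 at 2.05.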

How the data were processed

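The values were normalised read counts, a signal deposited by the authors in 1 table of 6 mouse libraries. Per the submitters' processing notes, STAR and HTSeq were used with builds GRCh38 and GRCm38, without versions, and how the counts were scaled is not given in the sources used here. Every value was a whole multiple of 1 read to within 0.01 read in 100% of cases, so reads were recovered for edgeR (4.0.16) and DESeq2 (1.42.0), as alternatives. The reported test was limma (3.58.1, R 4.3.3), two-sided and with intensity trend, on log2(value + 1) for genes with a mean of at least 10 over the 6 libraries, with Benjamini-Hochberg adjustment over 13821 genes and a threshold of 0.05. The script was tested on simulated data. Fold changes are on the log2(value + 1) scale, where the added 1 tends to shrink those of low genes. They could still exceed the folds of edgeR and DESeq2, as for Krt79 at 8.42 against 6.14 and 6.20. Exon lengths and positions came from GENCODE M21 and promoters from RefSeq, both on GRCm38. Shared windows are 50-base runs of a gene's exons found in another gene's transcripts. Every called keratin, and every uncalled one with a mean of at least 100, was named with values. From the keratin partner lists up to 4 called members of smallest adjusted p were given with values, and other members named were chosen after their values were seen. Members and lists were chosen with earlier results of these data known. Alternatives were pseudocounts of 0.5 and 10, no filter, a mean of 100, TMM scaling, no trend, a replicate block, and each library left out. Averaging BrM replicates 2 and 3 was added after seeing the data. The study's 5 human libraries were left out of these comparisons, and 1 upstream stretch is not reported here.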

Additional observations from a re-analysis of the deposited data

How the results depend on the processing

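The count of genes called was 3881 of 13821, and 2279 with BrM replicates 2 and 3 averaged into 1 sample. It ranged from 2191 (without BrM replicate 2) to 6519 (without BrM replicate 1) with 1 library left out. The type II count of 4 was 2 with that averaging and 1 to 6 with a library left out, and the type I count of 6 was 4 to 8. In the lists of anchors and regulators 18 of 44 tested genes were called, and 15 to 23 with a library left out. In the other alternatives, DESeq2 and edgeR included, these counts moved by less than 1.5 times. Krt8, Krt18, Krt17, Krt19 and Krt23 kept their calls in all 16 alternatives. The log2 fold change of Krt16, not called, was -0.22 and ran from -0.59 (without parental replicate 1) to 0.084 (without parental replicate 3), where its sign reversed.

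Same-numbered libraries deviated together for replicates 1 and 3 (Pearson r of 0.30 and 0.33 across genes, which are not independent replicates) but not for replicate 2 (-0.088). BrM replicate 2 correlated best with parental replicate 3 (0.31), so the numbers were not taken as pairs. With a replicate block, 4040 genes were called, 6 type I and 5 type II keratins among them, Krt6a being the additional one (adjusted p = 0.0272). With 3 libraries a group and 4 reads in a whole group for a member such as Krt20, changes of low members are imprecise, and members below the filter were not compared.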
